A study of Danio rerio with 4 samples.

Results

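The genes *sox2*, *sox3* and *sox19a* are the SoxB1 transcription factor genes that the zebrafish embryo transcribes from its own genome before gastrulation. They were taken by symbol from the gene list of the deposited cells, 3 of 47394 entries, and were described in cells that carried a value over 0.5 for a marker gene of neural (*her3*), anterior neural (*hesx1*), epidermal (*foxi1*), axial (*noto*), paraxial (*tbx6l*), endodermal (*sox32*) or enveloping layer (*krt92*) cells. *sox19a* has a second entry with a numeric suffix. The plain entry and the suffixed one have the same gene neighbours in the list, and the suffixed entry held 99.8% of the *sox19a* value over the 4 libraries, so both were summed.

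SoxB1 proteins bind DNA through an HMG domain and are known in vertebrates for keeping cells in an ectodermal and then neural progenitor state. In zebrafish, maternal Sox19b acts with Pou5f3 and Nanog to open chromatin at genome activation, and the zygotic SoxB1 proteins Sox2, Sox3 and Sox19a overlap with it in function. At the shield stage, the start of gastrulation, the family is known to mark presumptive ectoderm, while the mesendodermal margin switches to T-box and endodermal regulators and the enveloping layer, a flat outer epithelium, follows a keratin program of its own.

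The libraries were 10x Genomics 3′ single-cell libraries of whole shield-stage embryos, 2 from siblings and 2 from M*rbm24a* embryos. The labels give the siblings as wild type. The M*rbm24a* embryos were offspring of founder females that carried Cas9 under the oocyte promoter *zpc* and a transgene with guide RNAs against *rbm24a*, which encodes an RNA-binding protein, and were picked for the blue transgene marker and the lack of the red Rbm24a reporter. No single germline allele defines them. Each suspension pooled embryos, 33 being the number stated. Nothing in the labels says that the libraries of a group came from separate clutches, so the spread that p-values measure may be technical. In tests between genotypes it is the spread between the libraries of a group. In tests between sets of cells, with the library as a block, it is how differences between sets vary among the libraries.

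The 4 libraries held 14455 cells, between 3402 and 3952 each, and between 40176506 and 61973441 UMIs after the ambient RNA correction. The library labelled sibling 2 stood apart, with 740 cells under 1000 UMIs against 0, 259 and 192 in the others. Between libraries, 16 barcodes occurred in 2 of them. The targeted gene *rbm24a* summed to between 18 and 27 UMIs in each library, too few to check the labels, and a 3′ read can come from an edited transcript. Levels below are CPM, the corrected UMIs of a gene scaled to the corrected UMIs of the same cells (counts per 1000000). They are compared for 1 gene between cells, and not between genes.

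All 3 genes were widely detected. Over all cells, *sox2* reached 154 CPM in sibling 1 and 148 CPM in sibling 2, and 135 and 134 CPM in M*rbm24a* 1 and 2. *sox3* reached 394 and 438 CPM in the sibling libraries, with 329 and 351 CPM in the M*rbm24a* libraries. *sox19a* reached 387 and 347 CPM against 348 and 359 CPM. For *sox2* and *sox3* both M*rbm24a* libraries lay below both siblings, and for *sox19a* the groups overlapped. In such sums, fewer cells of a type and less RNA per cell cannot be told apart. A value over 0.5 was seen in 50.4% to 67.8% of the cells of a library for *sox2*, in 62.7% to 78.9% for *sox3* and in 63.5% to 80.2% for *sox19a*. Sibling 2, the library with the most shallow cells, had the lowest share for each gene. The cells with a value over 0.5 held a median of 2.35 to 2.96 UMIs of *sox2*, 3.55 to 6.76 of *sox3* and 4.48 to 7.67 of *sox19a* by library.

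The first question was where the genes were high. The 7 markers overlapped: 3411 cells passed for *her3*, 2030 for *hesx1*, 2321 for *foxi1*, 3796 for *noto*, 3487 for *tbx6l*, 4412 for *sox32* and 982 for *krt92*. Of all cells 5549 had exactly 1 of the 7, 3425 had none, and 14 had all. Levels were therefore compared mainly in cells with exactly 1 marker, called here *her3*-only cells and so on. The labels of the sets were checked with other marker genes in those cells. All of the 5 other paraxial markers and the 9 other enveloping layer markers were highest in their own set, as were 5 of 6 endodermal, 5 of 7 axial, 5 of 8 epidermal, 3 of 5 anterior neural and 3 of 4 neural markers. The neural exception, *zic2b*, summed to at most 1 UMI in a library, so it says nothing about the label. Among the other exceptions, *six3b* was highest in *noto*-only cells, and *tfap2a*, *gata2a* and *gata3* were highest in *krt92*-only cells. The sets are therefore named below by their marker gene.

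*sox2*, a neural progenitor factor, was highest in *her3*-only cells, with 241 and 225 CPM in sibling 1 and 2 and 241 and 219 CPM in M*rbm24a* 1 and 2. It was at 175, 174, 222 and 197 CPM in *hesx1*-only cells, in the same order of libraries. In *foxi1*-only cells it was at 166, 159, 142 and 166 CPM, and no library reached the lowest *her3*-only value. It was at 161, 135, 153 and 160 CPM in *noto*-only cells. *tbx6l*-only cells held 81.6, 74.1, 92.5 and 81.0 CPM, and *sox32*-only cells held 70.8, 102, 117 and 109 CPM. In all 4 libraries the *tbx6l* and *sox32* sets lay below each of the *her3*, *hesx1*, *foxi1* and *noto* sets. The axial *noto* set, which is mesodermal too, was thus not as low.

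*sox3*, the SoxB1 gene with the broadest known early ectodermal domain, had overlapping levels in *her3*-only and *foxi1*-only cells. It was at 540, 526, 475 and 493 CPM in *her3*-only cells and at 496, 585, 484 and 482 CPM in *foxi1*-only cells. *hesx1*-only cells held 429.8, 503, 325 and 378 CPM and *noto*-only cells held 465, 490.3, 335 and 417 CPM. *tbx6l*-only cells held 125.5, 145, 153 and 139 CPM, all below the lowest value of the *her3*, *hesx1*, *foxi1* and *noto* sets. *sox32*-only cells lay between, at 202, 251, 284 and 249 CPM.

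*sox19a*, a SoxB1 gene of teleosts, followed *sox3* closely. It was at 532, 481, 477 and 499 CPM in *her3*-only cells and at 499.7, 453, 547 and 498 CPM in *foxi1*-only cells. *hesx1*-only cells held 425, 419.7, 402 and 480.2 CPM and *noto*-only cells 399.5, 372, 383 and 409 CPM. *tbx6l*-only cells were lowest, at 123, 109.8, 176 and 148 CPM. *sox32*-only cells held 186, 222, 282 and 269.6 CPM. In both *tbx6l*-only and *sox32*-only cells the M*rbm24a* libraries were above the siblings for *sox19a*. Cells with none of the 7 markers were not low in the 3 genes. Their means over 4 libraries were 165 CPM of *sox2*, 395 CPM of *sox3* and 420 CPM of *sox19a*.

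**Figure D1:**
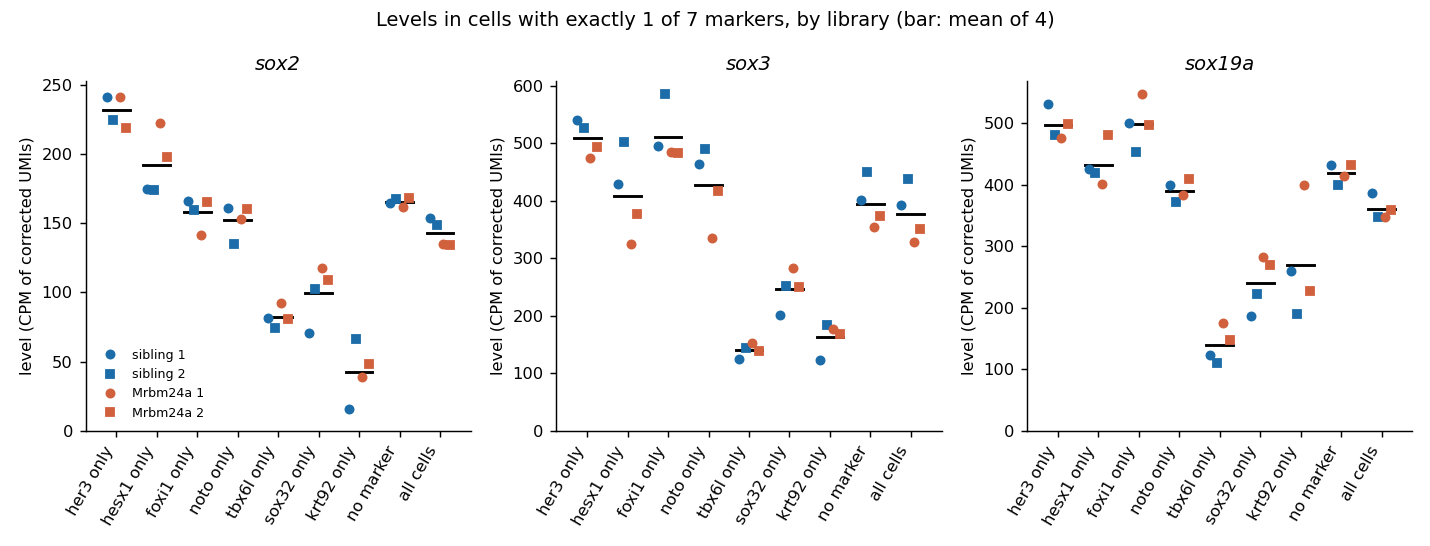
Level in CPM of *sox2*, *sox3* and *sox19a* (1 panel each) in cells with exactly 1 of 7 markers, in cells with none and in all cells. Points are libraries (blue siblings, orange M*rbm24a*) and bars are means of 4 libraries. *sox2* has its highest mean in *her3*-only cells (231 CPM), while *sox3* and *sox19a* have like means in *her3*-only and *foxi1*-only cells, and all are low in *tbx6l*-only cells.

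These differences were tested on sums per library and set with edgeR's quasi-likelihood test, with the library as a block and p-values adjusted over 10153 genes. Against *her3*-only cells, *sox2* was lower in *foxi1*-only cells by a log2 fold change of -0.54 ± 0.07 (SE, adjusted p = 7.5e-07), in a comparison where 4% of genes passed an adjusted p of 0.05. In the same comparison *sox3* (-0.01 ± 0.07, adjusted p = 0.984) and *sox19a* (-0.03 ± 0.07, adjusted p = 0.942) did not pass. In *noto*-only cells all 3 were lower (14.5% of genes passed). The log2 fold changes there were -0.60 for *sox2* (adjusted p = 1.79e-08), -0.25 for *sox3* (adjusted p = 0.0168) and -0.35 for *sox19a* (adjusted p = 0.000168). The *noto* calls of *sox3* and *sox19a* were lost in other settings, with adjusted p-values of up to 0.811 and 0.757, among them the fit on all cells over 0.5 for the marker and the fit without the library block. The *sox3* call was also lost without M*rbm24a* 1 (adjusted p = 0.243) and without M*rbm24a* 2 (adjusted p = 0.0691).

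Among cells with exactly 1 marker, where *krt92* was not tested, the *tbx6l* and *sox32* sets had the lowest values of all 3 genes against *her3*-only cells. In *tbx6l*-only cells (19.5% of genes passed) *sox2* fell by 1.48 on the log2 scale, *sox3* by 1.85 and *sox19a* by 1.85, with adjusted p-values of 2.98e-19, 6.32e-21 and 5.95e-22. In all cells over 0.5 for the marker, sets that overlap, the falls were smaller, 0.65, 0.68 and 0.64, and still passed. In *sox32*-only cells (18.6% of genes passed) *sox2* fell by 1.20, *sox3* by 1.01 and *sox19a* by 1.05, the highest adjusted p being 9.32e-13. *sox32*-only cells were shallow, with a median of 3407 to 9983 UMIs against 11659 to 15717 in *her3*-only cells. With cells of 5000 to 30000 UMIs alone, the *sox32* values were -1.19, -1.07 and -1.07. In all cells over 0.5 for the marker *sox2* was at -0.45 and passed, while *sox3* (-0.37, adjusted p = 0.300) and *sox19a* (-0.35, adjusted p = 0.164) did not. *hesx1*-only cells (1.54% of genes passed) gave no value past the threshold against *her3*-only cells, with log2 fold changes of -0.26 for *sox2* (adjusted p = 0.162), -0.29 for *sox3* (adjusted p = 0.096) and -0.18 for *sox19a* (adjusted p = 0.407). *sox3* passed there without sibling 2 (-0.40, adjusted p = 0.0494).

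**Figure D2:**
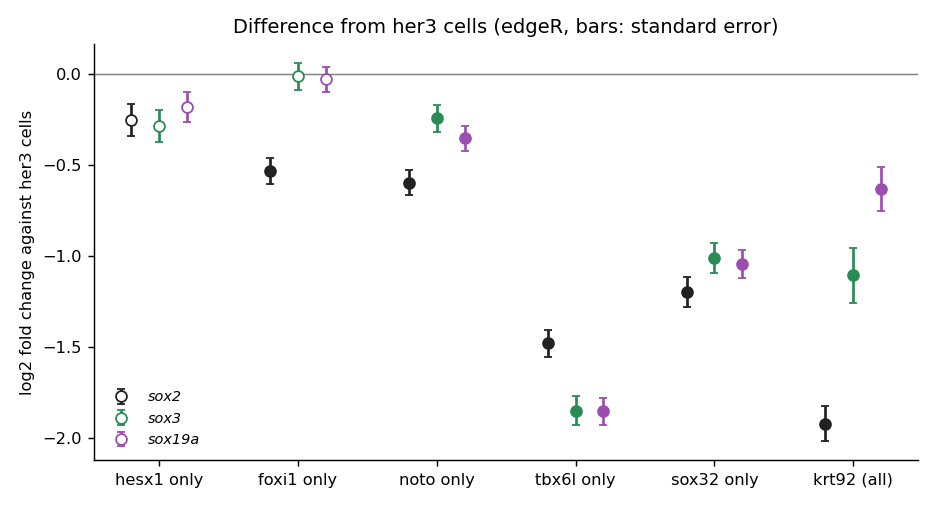
Log2 fold change of each gene against *her3* cells (edgeR, bars are standard errors, filled points have an adjusted p under 0.05), in cells with exactly 1 marker, or, for *krt92*, in all cells over 0.5. *sox2* alone is filled in *foxi1*-only cells (-0.54), and within *krt92* cells *sox19a* falls less (-0.63) than *sox2* and *sox3* do.

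Not all neighbours in the order of levels passed the test of their difference. For *sox2*, *noto*-only against *foxi1*-only cells did not (log2 difference -0.06, adjusted p = 0.681, 14.1% of genes passed), nor did *foxi1*-only against *hesx1*-only cells (-0.28, adjusted p = 0.0778, 3.96% passed), while *sox32*-only cells were above *tbx6l*-only cells (0.28, adjusted p = 0.0227, 14% passed). For *sox3*, *noto*-only against *hesx1*-only cells did not pass (0.04, adjusted p = 0.854, 10.6% passed), and *sox32*-only cells were above *tbx6l*-only cells by 0.84 (adjusted p = 1.56e-09). For *sox19a* the same step was 0.81 (adjusted p = 7.34e-10), and *noto*-only cells were below *foxi1*-only cells by 0.32 (-0.32, adjusted p = 0.000532). *sox3* was also lower in *noto*-only than in *foxi1*-only cells (-0.23, adjusted p = 0.0259).

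The balance among the genes shifted with the set. The log2 ratio of *sox2* to *sox3* was lower in *foxi1*-only than in *her3*-only cells in 4 of 4 libraries, by -0.79 to -0.37 with a mean of -0.56. In *tbx6l*-only cells the same ratio was higher in 4 of 4 libraries, by a mean of 0.36. The log2 ratio of *sox19a* to *sox3* moved by a mean of -0.00143 in *foxi1*-only, -0.00117 in *tbx6l*-only and -0.0153 in *sox32*-only cells. These means hide libraries that moved in opposite directions. They ranged from -0.24 to 0.17 in *foxi1*-only, -0.27 to 0.20 in *tbx6l*-only and -0.092 to 0.097 in *sox32*-only cells. In all cells over 0.5 for the marker, which overlap, the *sox2* to *sox3* shift was -0.29 in *foxi1* cells (4 of 4 libraries) and 0.03 in *tbx6l* cells, where 2 of 4 libraries were lower. An exact sign-flip test over 4 libraries cannot go below p = 0.125. In cells with exactly 1 marker the *sox2* to *sox3* shifts reached it for every set but *hesx1*. Besides *foxi1*, the ratio was lower in 4 of 4 libraries in *noto*-only (mean -0.34), *sox32*-only (-0.18) and *krt92*-only cells (-0.98). The *sox19a* to *sox3* shifts reached it in *krt92*-only cells alone (mean 0.72, from 0.17 to 1.18). That set was small and shallow, with 41 cells in M*rbm24a* 1 and *sox2* sums of 12.7 to 39.5 UMIs by library. In sibling 2, 71.6% of its cells were under 1000 UMIs.

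*krt92* encodes a keratin of the enveloping layer. In all *krt92* cells the log2 ratio of *sox2* to *sox3* was lower than in all *her3* cells in 4 of 4 libraries (mean -0.80). The log2 ratio of *sox19a* to *sox3* was higher by a mean of 0.50, but was lower in M*rbm24a* 2 (-0.071). The *krt92*-only set was too small for the test in M*rbm24a* 1 (41 cells against a minimum of 50), so all *krt92* cells were compared with all *her3* cells in a fit chosen after seeing the data, where 48.6% of 16104 genes passed. In that fit *sox2* fell by 1.92 on the log2 scale (adjusted p = 2.19e-13), *sox3* by 1.11 (adjusted p = 1.29e-06) and *sox19a* by 0.63 (adjusted p = 0.00013). Sibling 2 gave 579 of the 982 *krt92* cells, with a median of 868 UMIs. Without it the falls were 2.02, 1.04 and 0.54 (adjusted p-values of 3.21e-09, 7.19e-06 and 0.000144), and with cells of at least 1000 UMIs in every library they were 1.98, 1.13 and 0.63. In the 279 cells with over 10 UMIs of *krt92*, *sox2* had 11.1 and 8.84 CPM in sibling 1 and 2 and 34.3 and 30.4 CPM in M*rbm24a* 1 and 2. *sox3* was at 110.0 and 125 CPM in the sibling libraries there and at 168 CPM in the lower of the M*rbm24a* libraries. *sox19a* was at 239.9 and 155 against 311 and 208 CPM. In these cells *sox2* was thus at most 34.3 CPM and *sox19a* at most 311 CPM in any library, both below every *her3*-only library. The means were 21.1 CPM of *sox2* and 229 CPM of *sox19a*. Over all cells of a library they were at 134 to 154 and at 347 to 387 CPM. The *krt92* level of these cells also differed between the groups, with 10392 and 16727 CPM in the sibling libraries against 6872 and 2910 CPM in M*rbm24a*, and its part in the *sox2* and *sox3* values was not tested.

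A value over 0.5 can stem from leftover free RNA, so the genes were followed along the value of each marker. In cells over 0.5 and up to 1.5 UMIs of *tbx6l*, *sox2* had a mean of 141 CPM, which became 107 CPM up to 3.5 UMIs, 79.0 CPM up to 10 UMIs and 39.7 CPM over 10 UMIs (84 cells, 3 libraries). *sox3* went from 346 to 285, 214 and 138 CPM over the same steps, and *sox19a* from 328 to 275, 202 and 115 CPM. Each step was downward for each gene in each library, down to levels under those of whole libraries. With *sox32* the levels were close up to 10 UMIs, at 144 to 125 CPM for *sox2* and 385 to 360 CPM for *sox3*, and low over 10 UMIs, at 58.8 CPM for *sox2*, 189 CPM for *sox3* and 190.4 CPM for *sox19a* (414 cells). Over 10 UMIs of *noto*, *sox2* had a mean of 101 CPM, *sox3* of 323 CPM and *sox19a* of 224 CPM. In that bin *sox19a* ranged from 183 to 282 CPM, under the 348 to 403 CPM of the weakest *noto* cells by library. Along *her3*, *sox3* differed among libraries. It went from 430.0 to 466 and 498 CPM in sibling 1, from 437 to 515 and 659 CPM in sibling 2, and from 353 to 385 and 522 CPM in M*rbm24a* 1. In M*rbm24a* 2 it went from 355 to 438 CPM and then down to 409 CPM. Over 10 UMIs of *her3* only the sibling libraries had enough cells (51 in all), with 513 and 794 CPM of *sox3*. Along *foxi1*, *sox3* was at 446, 489 and 548 CPM in sibling 1 and at 470.2, 595 and 584 CPM in sibling 2. In M*rbm24a* 2 it was at 391, 372 and 355 CPM, with 27 cells in the last bin. M*rbm24a* 1 went from 373 to 364 CPM and had too few cells in that bin. There M*rbm24a* 2 had a median of 26383 UMIs and 122 CPM of *foxi1*. Sibling 1 had 20894 UMIs and 225 CPM, and sibling 2 had 18344 UMIs and 202 CPM. The part of depth and marker level in the steps along any marker was not tested. These steps are descriptions, since cells of a bin share their library.

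**Figure D3:**
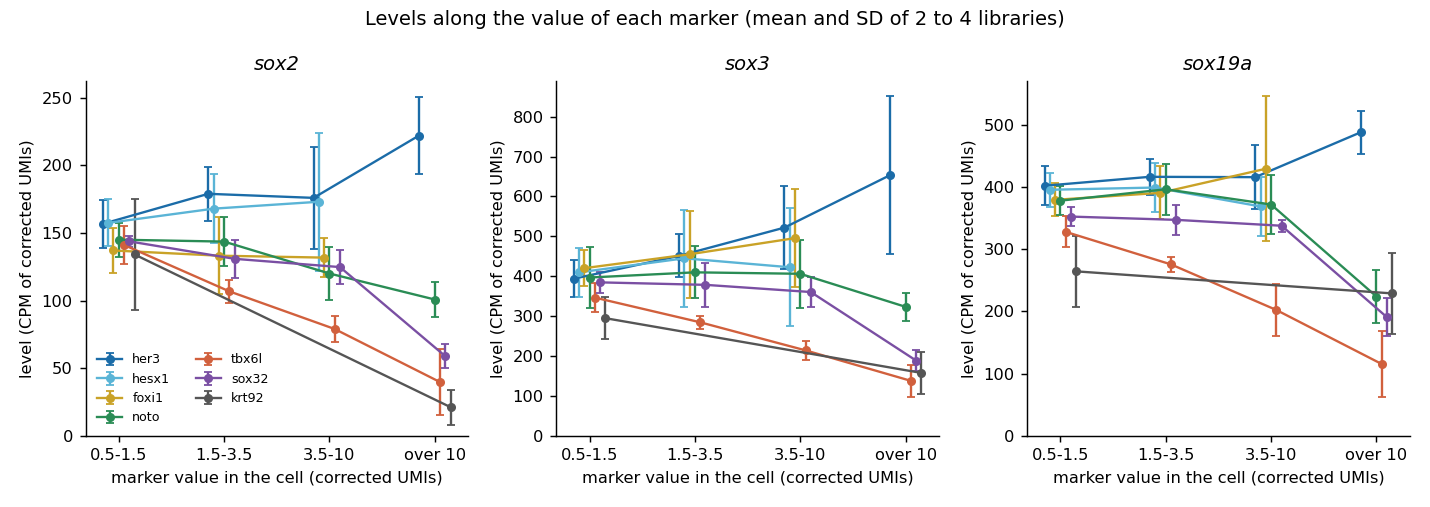
Mean level in CPM (bars are SDs over 2 to 4 libraries) of each gene in cells binned by the corrected UMIs of 1 marker. Along *tbx6l* all 3 genes go down step by step (*sox2* from 141 to 39.7 CPM), along *sox32* they drop over 10 UMIs, and the last *her3* point holds the sibling libraries alone (513 and 794 CPM of *sox3*).

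Cells with exactly 2 markers were described next. The 107 cells with *her3* and *foxi1* held 817 ± 118 CPM of *sox3* (SD, n = 3 libraries), above either *her3*-only or *foxi1*-only cells, with 219 ± 10.2 CPM of *sox2* and 541 ± 80.1 CPM of *sox19a*. The 408 cells with *her3* and *hesx1* held 246 ± 17.0 CPM of *sox2*, 509 ± 84.5 of *sox3* and 464 ± 28.4 of *sox19a* (n = 4). The 364 cells with *her3* and *noto* held 207 ± 24.2, 575 ± 105 and 571 ± 43.9 CPM. Cells with *tbx6l* and *sox32*, 385 in all, were low, at 92.2 ± 8.84, 221 ± 9.78 and 198 ± 32.7 CPM. A cell with markers of more than 1 layer can also be a doublet that the authors' filter left, which was not tested here.

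Co-detection per cell was compared at 1 depth. Each cell was thinned to 5000 UMIs in expectation, and 4188 shallower cells were left out. All 3 genes were detected in 43.6% ± 3.84 (SD, n = 4) of *her3* cells, 40.6% ± 4.87 of *hesx1* cells, 35.8% ± 4.29 of *foxi1* cells, 33.3% ± 2.85 of *noto* cells, 29.1% ± 1.77 of *sox32* cells, 20.7% ± 0.83 of *tbx6l* cells and 10.5% ± 1.86 of *krt92* cells. Each set lay below *her3* cells in 4 of 4 libraries, which gave p = 0.125 in an exact sign-flip test, the smallest that 4 libraries allow. The same share without thinning was 84.9% in *her3* cells and 86.0% in *hesx1* cells. The order of these neighbours thus changed with the thinning, which also leaves out the shallow cells. Without thinning *hesx1* cells were lower in only 1 of 4 libraries. The sets compared here share cells: 58.2% of *hesx1* cells and 35.3% of *noto* cells were also *her3* cells. In cells with exactly 1 marker the thinned means were 51.6% for *her3*, 41.5% for *hesx1*, 39.7% for *foxi1* and 33.6% for *noto*. They were 21.3% for *sox32* and 12.8% for *tbx6l*. For *krt92*, 731 of 982 cells were too shallow to enter. Cells with none of the 7 markers had all 3 genes in 37.1% ± 2.20 after thinning, which left out 1772 of them.

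Between *her3* and *foxi1* cells the share with *sox2* differed most. Thinned *foxi1* cells had *sox3* in 79.1%, *sox19a* in 82.2% and *sox2* in 47.8%, against 82.1%, 86.2% and 58.2% of *her3* cells. *sox3* and *sox19a* without *sox2* were found in 32.5% ± 0.58 of *foxi1* cells, 28.2% ± 0.41 of *her3* cells and 29.7% ± 7.38 of *krt92* cells. *sox2* had the fewest UMIs of these genes, so it is the most easily missed at this depth. How many of these cells held *sox2* RNA that was missed was not tested. In cells with over 10 UMIs of *krt92* the thinned shares were 11.9% for *sox2*, 51.4% for *sox3* and 68.4% for *sox19a*. These cells had a median of 12371 to 21478 UMIs by library before thinning, against 16901 to 18988 in *her3* cells. In cells with over 10 UMIs of *sox32* they were 15.4%, 31.8% and 32.8%, with none of the genes in 54.7%. No set here is known to lack the genes, so these sets give the lowest shares, and not a background. Across all cells detection went together for every pair, with odds ratios of 3.51 ± 1.08 for *sox2* and *sox3*, 4.02 ± 1.01 for *sox2* and *sox19a* and 7.09 ± 2.49 for *sox3* and *sox19a*. Within *her3* cells, where most cells had each gene, the odds ratios were 1.43, 1.52 and 1.79. They varied with the set. In the same order of pairs they were 2.73, 2.75 and 4.96 in *noto* cells and 2.89, 2.93 and 4.82 in *sox32* cells. In *tbx6l* cells they were 3.69, 3.84 and 6.07. Cells with none of the 7 markers had 4.303, 6.18 and 10.5, above all cells for each pair. The *hesx1*, *foxi1* and *krt92* cells lay below all cells for each pair, as *her3*, *noto* and *sox32* cells did.

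**Figure D4:**
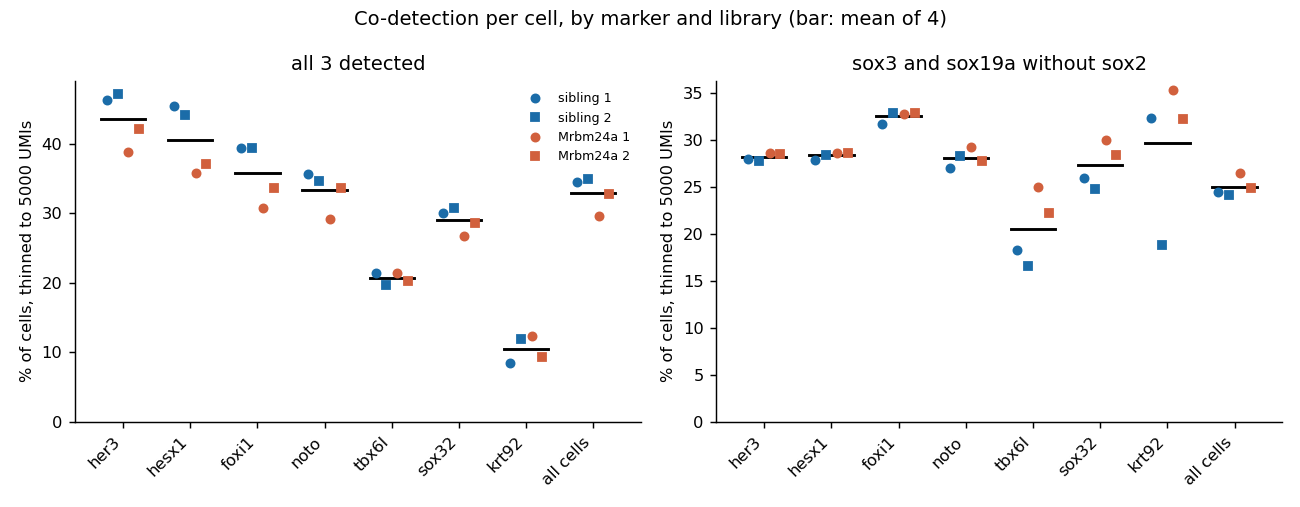
Percent of cells, thinned to 5000 UMIs, with all 3 genes detected (left) and with *sox3* and *sox19a* but not *sox2* (right), by marker and library, with bars for means of 4 libraries. The left share goes from 43.6% in *her3* cells to 10.5% in *krt92* cells, and the right share is highest on average in *foxi1* cells (32.5%).

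The second question was whether the loss of maternal Rbm24a went with a change of the genes. In whole libraries edgeR called 195 of 17764 genes (1.1%), and none of the 3 genes. The log2 fold change (M*rbm24a* minus sibling) was -0.13 ± 0.09 (SE) for *sox2* (adjusted p = 0.495), -0.25 ± 0.09 for *sox3* (adjusted p = 0.232) and -0.02 ± 0.11 for *sox19a* (adjusted p = 0.955). The exact permutation p of 2 against 2 libraries, which cannot go below 0.33, was 0.33 for *sox2* and *sox3* and 1 for *sox19a*. Without sibling 1 the *sox3* value was -0.26, in a fit where the lone sibling library is assumed to vary like the others.

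Within the marker sets no value of the 3 genes passed in any of the 21 tests, with adjusted p-values of 0.219 to 0.988. The background of called genes was 1.27% in *her3* cells, 1.54% in *hesx1*, 0.0144% in *foxi1*, 0.378% in *noto*, 0.109% in *tbx6l*, 1.45% in *sox32* and 0% in *krt92* cells, where edgeR called 0 of 9054 genes with 463 at an unadjusted p under 0.05, and DESeq2 called 5 and limma 0. *sox3* had its lowest value in *hesx1* cells (-0.44 ± 0.15), from 448 and 543 CPM in sibling 1 and 2 to 355 and 347 CPM in M*rbm24a* 1 and 2. In *her3* cells *sox3* was at 467 and 554 against 390.4 and 399 CPM (-0.32 ± 0.13). Without sibling 1, which leaves a lone sibling library, that *her3* value was -0.38. *sox2* was at 189 and 190.4 against 159 and 143 CPM in *her3* cells (-0.28 ± 0.11, adjusted p = 0.302). Both M*rbm24a* libraries lay below both siblings for *sox2* and *sox3* in the *her3*, *hesx1*, *foxi1*, *noto* and *sox32* cells, and these sets share cells. In cells with exactly 1 marker this held for *sox3* in the *her3*, *hesx1*, *foxi1* and *noto* sets and for *sox2* in none. There *sox2* was above both siblings in both M*rbm24a* libraries in *hesx1*-only and *sox32*-only cells and overlapped in the *her3*, *foxi1*, *noto* and *tbx6l* sets. In all cells with over 10 UMIs of *sox32* it went the other way. *sox2* was at 67.6 and 62.9 CPM there in sibling 1 and 2, against 57.9 and 47.0 CPM in M*rbm24a* 1 and 2. Cells over 0.5 for *sox32* made up 44.9% of M*rbm24a* 1. They made up 27.7% of sibling 1, 21.2% of sibling 2 and 29.2% of M*rbm24a* 2. The part of this makeup was not tested. The thinned share of cells with all 3 genes was also lower in both M*rbm24a* libraries in all *her3*, *hesx1*, *foxi1*, *noto* and *sox32* cells. The drops were 2.71 to 8.34 percentage points (exact permutation p = 0.33), and the share without thinning was not lower in both.

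**Figure D5:**
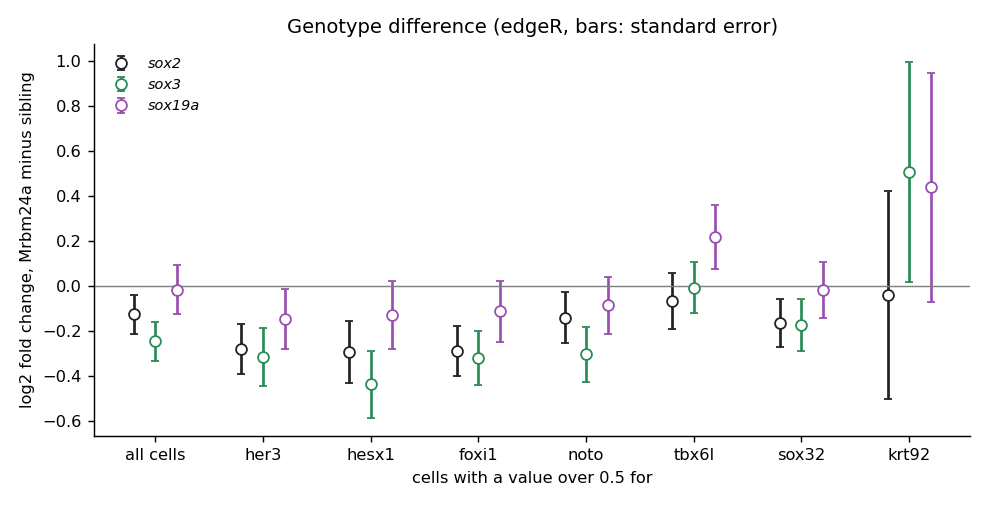
Log2 fold change, M*rbm24a* minus sibling, of each gene in all cells and in cells over 0.5 for each marker (edgeR, bars are standard errors, open points have an adjusted p of 0.05 or more). All points are open. *sox3* is lowest in *hesx1* cells (-0.44), and the *krt92* values have the widest errors.

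*her3*, a Hairy/E(spl) gene that marks neural plate, fell by 1.15 in whole M*rbm24a* libraries on the log2 scale (adjusted p = 0.00421), from 56.1 and 61.4 CPM to 26.0 and 25.1 CPM, so that the *her3* set itself was drawn at a changed marker level. It belongs to a list of 13 genes that earlier zebrafish work placed under SoxB1 control, of which 12 were in the files and 10 were tested. Of these 3 were lower (0.946% of all genes passed in that direction) and 0 higher (0.152%) in M*rbm24a*: *her3*, the forkhead gene *foxb1a* and the protocadherin *pcdh18a*. *foxb1a* had 53.2 and 56.0 CPM in the sibling libraries and 30.2 and 29.6 CPM in M*rbm24a* (-0.83, adjusted p = 0.0109). *pcdh18a* was scarce, at 1.92 and 2.08 against 0.554 and 0.730 CPM (-1.58, adjusted p = 0.0271). The median of the 10 genes was -0.41, against -0.00123 over all genes tested. The list was assembled with the results of these libraries known. It does not record in which direction each gene responds to SoxB1 factors, so its medians are descriptions and no measure of a SoxB1 response. Other cell type markers were also lower in whole M*rbm24a* libraries: *noto* went from 70.0 and 72.6 to 49.0 and 43.9 CPM (-0.58, adjusted p = 0.0378), and *krt92* was at 288 and 410.4 against 160 and 199 CPM (-0.91, adjusted p = 0.0552). *foxi1* was at 18.7 CPM in the lower sibling against 13.9 and 14.7 CPM (-0.53, adjusted p = 0.0887). The pluripotency factor gene *nanog* was at 67.6 and 72.8 against 91.9 and 93.8 CPM (0.45, adjusted p = 0.0512). Their part in the values of the list was not tested.

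Between the sets the same list split. Leaving out the markers *her3* and *hesx1*, 7 of its genes were tested. In *foxi1*-only cells, where 1.99% of all genes were lower and 2.01% higher than in *her3*-only cells, 3 of the list were lower (*cyp26a1* and *foxb1a* among them) and 1 was higher (*bmp7a*, a BMP ligand, 51.9 against 15.2 CPM, log2 fold change 1.81, adjusted p = 2.84e-11). *foxb1a* fell there by 2.88 (adjusted p = 1.02e-17). In *tbx6l*-only cells 4 were lower and 2 higher (8.92% and 10.6% of all genes), and the counts were the same in *sox32*-only cells (8.03% and 10.5%). In both sets *cyp26a1*, *pcdh18b* and *foxb1a* were among the lower genes. *cyp26a1*, which encodes a retinoic acid degrading enzyme, was highest in *hesx1*-only cells, at 190 ± 7.45 CPM (SD, n = 4) against 78.5 ± 14.8 CPM in *her3*-only cells (1.28, adjusted p = 1.39e-11). The median log2 fold change of the 7 genes was -0.49 in *hesx1*-only cells, -0.25 in *foxi1*-only, -0.19 in *noto*-only and -0.75 in *tbx6l*-only cells, against medians of all genes of 0.00797, -0.00234, 0.0069 and -0.00147, and it was lower in *sox32*-only than in *tbx6l*-only cells.

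Among other SoxB genes only *sox19b*, the maternal SoxB1 gene, had more than trace levels. It was at 77.1 ± 15.3 CPM (SD, n = 4) in *her3*-only, 68.4 ± 5.02 in *hesx1*-only, 65.7 ± 6.29 in *noto*-only, 48.3 ± 7.25 in *foxi1*-only, 34.3 ± 4.92 in *sox32*-only and 21.3 ± 4.73 in *tbx6l*-only cells. Against *her3*-only cells it fell by 0.72 in *foxi1*-only (adjusted p = 6.02e-06), 1.14 in *sox32*-only (adjusted p = 4.8e-10) and 1.87 in *tbx6l*-only cells (adjusted p = 9.9e-17). *sox1a* summed to 20 to 28 UMIs in each library, and *sox1b*, *sox14*, *sox21a* and *sox21b* to 0 to 3. *pou5f3*, a partner of SoxB1 proteins at genome activation, varied less, with 1458 ± 103 CPM in *her3*-only and 1063 ± 133 CPM in *tbx6l*-only cells (-0.44, adjusted p = 6.34e-09). *nanog* ranged from 64.3 ± 13.9 CPM in *tbx6l*-only to 104 ± 16.1 CPM in *foxi1*-only cells, and only the *tbx6l* difference from *her3*-only cells passed (-0.41, adjusted p = 0.000333).

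Last, the genes with the most similar pattern were named from 4786 genes with a mean of at least 20 CPM, by Pearson's r over 24 points, which are 6 sets in each of 4 libraries and share their library and depth. *sox3* and *sox19a* went together with r = 0.988, *sox2* and *sox19a* with r = 0.903, and *sox2* and *sox3* with r = 0.878. The 5 genes closest to *sox2* were *her2* (r = 0.969), *alcamb*, LOC100537556, *prdx2* and *ctnnal1* (r = 0.942). *her2*, a Hairy/E(spl) gene, went from 698 CPM in *her3*-only to 506 in *foxi1*-only and 219 in *tbx6l*-only cells. The 5 closest to *sox3* were LOC100534909 (r = 0.965), *pcdh18b*, *her15.1*, *her12* and LOC100148329 (r = 0.948). *her12*, of the same family, was at 619 CPM in *her3*-only, 748 in *foxi1*-only and 301 in *tbx6l*-only cells. The 5 closest to *sox19a* were the SoxC gene *sox11a* (r = 0.960), LOC100534909, *her8a*, *her12* and *her15.1* (r = 0.946), so that LOC100534909, *her12* and *her15.1* stood in both lists. The *her* genes belong to a multigene family whose close copies may share reads, so their values are uncertain. *sox2ot* is a long non-coding gene that spans *sox2* in the RefSeq annotation of GRCz12tu, another assembly than the GRCz10 used for these reads. How any reads shared by *sox2* and *sox2ot* were counted is not stated. *sox2ot* summed to 1352 UMIs against 29707 for *sox2*.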

How the data were processed

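Cells of 4 whole-embryo 10x Genomics libraries (Chromium Next GEM 3′ kit, version 3.1) were analysed. The authors trimmed reads with Trimmomatic, made UMI matrices with Cell Ranger on GRCz10, removed ambient RNA with DecontX, doublets with Scrublet and outlying cells, and deposited the resulting estimated counts, which have decimals. No source used here gives software versions or the gene annotation. The correction can leave or remove some of a gene's UMIs in cells that take up free RNA.

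Deposited estimated counts were added up by library, or by library and set of cells, and rounded. A gene counted as detected, and a cell as marker-positive, at a value over 0.5. Sets needed 50 cells in each library. edgeR 4.0.16 (filterByExpr, TMM, quasi-likelihood test, R 4.3.3) gave p-values adjusted over all genes by Benjamini and Hochberg. The tests between sets had the library as a block, those between genotypes none. As alternatives, limma 3.58.1 on log2(CPM + 1) and DESeq2 1.42.0 were run. Single values were compared by exact permutation over libraries (scipy 1.17.1). Thinning used the probability that at least 1 UMI of the gene stays when a cell is thinned to 5000 UMIs, and cells under 5000 were left out. The tests were tried on simulated data first. Entries with a numeric suffix were summed for listed genes (13 entries of 11 symbols), and 5 of 74 listed symbols were not matched. Named were the 3 genes, the 7 markers, the lists, and for each gene the 5 genes with the highest Pearson r on log2(CPM + 5) centred within libraries, in cells with exactly 1 marker, members and markers left out. *six3b*, *zic2b*, *tfap2a*, *gata2a* and *gata3* came from the marker lists. The genes and lists were chosen with earlier results of these data known. The paper speaks of cells collected in batches, and the labels do not say which libraries shared a batch. Libraries with the same replicate number did not deviate together (correlation of deviations over 17764 genes -0.00693). That does not settle whether they shared a batch. The genotype fit with the number as a block stands among the alternatives. The values of 1 listed gene are not reported here.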

Additional observations from a re-analysis of the deposited data

Results flagged for a closer look

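*sox19a* went in opposite directions between the genotypes in different cells: both M*rbm24a* libraries were above both siblings in *tbx6l* cells (log2 fold change 0.22) and below both in *her3* (-0.15), *hesx1* (-0.13), *foxi1* (-0.11) and *noto* cells (-0.09). None of these values passed edgeR's test, the sets share cells, and the difference between the sets was not tested. In cells up to 1.5 UMIs of *tbx6l* the genotypes overlapped (353 and 294 CPM in siblings, 329 and 334 CPM in M*rbm24a*). They overlapped up to 3.5 UMIs too (277 and 263 against 292 and 269 CPM). Cells up to 1.5 UMIs were 343 of 885 and 289 of 666 *tbx6l* cells in siblings. In M*rbm24a* they were 519 of 958 and 449 of 978. The part of this makeup in the *tbx6l* value was not tested. In cells with exactly 1 of the markers *sox19a* overlapped between the genotypes in the *her3*, *hesx1*, *foxi1* and *noto* sets, and was above both siblings in *tbx6l*-only cells.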

How the results depend on the processing

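In whole libraries the 195 calls between genotypes became 436 with DESeq2, 1813 without the filter on low counts, 64 without cells over 30000 UMIs, and 8 to 3682 with 1 library left out. None of these alternatives but the one without sibling 1 made one of the 3 genes pass. With 1 library left out the log2 fold change of *sox3* was -0.30 to -0.20 and that of *sox19a* -0.15 to 0.13 (0.13 without sibling 1, 0.0088 without M*rbm24a* 1). In the marker sets 689 calls in all became 480 to 7035 with 1 library left out, and leaving out 1 library also turned the sign of genotype values that had not passed: *sox2* in *tbx6l* cells (-0.20 to 0.080) and in *krt92* cells (-0.24 to 0.15, and 0.15 without sibling 2 or without M*rbm24a* 1), *sox3* in *tbx6l* cells (-0.056 to 0.039, 0.033 without M*rbm24a* 1), and *sox19a* in *foxi1* (-0.25 to 0.030), *noto* (-0.19 to 0.051) and *sox32* cells (-0.13 to 0.10, 0.00012 without M*rbm24a* 1). With a marker value over 2 the sign turned for *sox2* in *tbx6l* (0.039) and *krt92* cells (0.94), *sox3* in *tbx6l* cells (0.21) and *sox19a* in *sox32* cells (0.11).

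With the replicate number as a block the whole-library calls were 569, and the values of *sox2*, *sox3* and *sox19a* were -0.12, -0.25 and -0.01. Samples with the same number did not deviate together. Without the library block between sets, the 1979 calls between *tbx6l*-only and *her3*-only cells became 1147, and *sox3* (-0.25) and *sox19a* (-0.35) no longer passed in *noto*-only cells.

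The same count was 880 in all cells over 0.5 for the marker, 907 with those of at least 1000 UMIs, 711 over 2 and 1193 to 1528 with 1 library left out. Over 0.5, over 0.5 with 1000 UMIs, and over 2, *noto* minus *her3* was -0.20, -0.19 and -0.38 for *sox3* and -0.16, -0.16 and -0.30 for *sox19a*, none of which passed. Over 0.5 without and with the minimum of 1000 UMIs, *sox32* minus *her3* was -0.37 and -0.36 for *sox3* and -0.35 and -0.35 for *sox19a* and did not pass, and over 2 the *foxi1* value of *sox2* (-0.50) did not pass. The *noto* value of *sox3* did not pass with limma (-0.28) or DESeq2 (-0.26) either, and was -0.31 to -0.19 with 1 library left out. In *hesx1*-only cells without the filter all 3 passed (-0.30 for *sox2*, -0.33 for *sox3*, -0.23 for *sox19a*). The share of all genes that passed in that fit is not given, so these calls are not read further. *sox3* was -0.40 to -0.23 there with 1 library left out. With 1 library left out the *foxi1* values were -0.069 to 0.038 for *sox3* and -0.074 to 0.00071 for *sox19a*. Over the 18 between-set values, direction and side of the threshold were kept in 205 of 228 alternatives. The share of *her3* cells with all 3 genes was 65.0% thinned to 8000 UMIs, 70.1% at a value over 1 without thinning, 51.6% in *her3*-only cells and 42.5% to 45.2% with 1 library left out. A marker value over 2 with all others at 0.5 or less left under 50 *her3* cells in 2 libraries and gave no value, and no value could be had for *hesx1* or *krt92* with 5000 to 30000 UMIs. The cause of these changes was not tested. Depth limits *krt92* most, with 251 of 982 cells at 5000 UMIs or more.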
